A study of Mus musculus with 3 samples.

Results

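The ISG15 conjugation system was described here in chromatin RNA of mouse macrophages through 5 genes, Uba7, Ube2l6, Herc6, Isg15 and Usp18, of the 55536 genes in the annotation. The genes were chosen by name, as the enzymes and the modifier of 1 pathway, with earlier results of these data known. Their rows were found by matching gene symbols to gene identifiers. The 5 genes carry 30 of the 141767 annotated transcripts that were quantified. ISG15 is a ubiquitin-like protein that is attached to other proteins in cells exposed to interferon or to bacterial lipid. The attachment runs through a relay of enzymes: UBA7 activates ISG15, UBE2L6 carries it, and an E3 ligase hands it to the target protein. In mice that ligase is HERC6, whereas in humans it is HERC5. USP18 removes ISG15 again, and it also binds the type I interferon receptor and dampens its signal.

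Bone marrow-derived macrophages (BMDM) of C57BL/6J mice formed 1 group of 3 biological replicates, and the chromatin fraction of each was sequenced after removal of ribosomal RNA. All cells had received lipid A, the membrane anchor of bacterial lipopolysaccharide and a ligand of TLR4, at 100 ng/ml for 12 h, had been kept without it for 12 h, and had then received 100 ng/ml again for 30 min. The labels give the 3 libraries separate biosamples and 1 shared donor identifier, and they give neither age nor sex. Spread and p-values below therefore describe these samples, which may share a source. RNA bound to chromatin is largely RNA still being made or processed, so these values stand closer to transcription than to the RNA pool of the whole cell. Cells without lipid A, or with only the first exposure, were not analysed here, so none of the levels measures a response.

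Libraries had totals of 12532722 to 18395358 expected counts, which are read counts divided among the transcripts they could come from. Levels are given in TPM, which corrects for transcript length and scales each library to a fixed sum. Protein-coding genes made up 29.8% to 33.4% of TPM. The macrophage label was checked against marker genes in the authors' gene table: 10 of 10 macrophage markers were above 1 TPM, with a summed level of 1160 to 1400 TPM per library. Markers of other cells were judged by the limma test against 1 TPM described below. It called 0 of 6 lymphoid, 0 of 6 granulocyte and mast cell, and 0 of 5 stromal and endothelial markers. Their summed levels stayed between 0 and 3.41 TPM per library. The endothelial marker Pecam1 nevertheless had 1.14, 2.08 and 1.55 TPM in replicates 1, 2 and 3 of this table. It was left uncalled because its adjusted p by limma, 0.0546, exceeded 0.05. Of the dendritic cell markers 1 of 6 passed, Bst2 with 49.5 TPM, which is also an interferon-induced gene of other cells. Cd3e, Ncr1, S100a8, Mpo and Elane, which define other blood cells, were listed at 0 in all 3 libraries of this table. A second transcript table, made by another tool, gave Mpo 1.46, 2.25 and 1.49 TPM in replicates 1, 2 and 3. Cd3e, Ncr1, S100a8 and Elane had means of 0.0468 TPM or less there, and Pecam1 had a mean of 9.93 TPM. The median there was 1.38 TPM for the dendritic cell markers and 110 TPM for the macrophage markers.

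The sequence just upstream of the gene starts is shown first. It was searched for the interferon-responsive motif, which is bound by the STAT and IRF factors of the interferon response. The motif searched was GAAA, any 2 bases and GAAA again. RefSeq promoters of build GRCm38.p6 matched 4 of the 5 members, all but Usp18. In the 250 bases before the start, read on both strands, Isg15 held 3 exact copies of it, which overlap each other. Uba7, Herc6 and Ube2l6 held 0 exact copies. Of all 32851 mouse promoters in the table, 2.98% held at least 1 exact copy. The lines below give 130 bases upstream of the start of Isg15 and of Herc6, 5′ to 3′ along the strand of the gene, and a 30-base site of Uba7. Capitals in Isg15 mark the 3 exact copies, and capitals in Uba7 mark the 2 overlapping stretches that differ from the motif at 1 fixed letter, read on the opposite strand.
Isg15 (chr4:156200819-156200948, minus strand): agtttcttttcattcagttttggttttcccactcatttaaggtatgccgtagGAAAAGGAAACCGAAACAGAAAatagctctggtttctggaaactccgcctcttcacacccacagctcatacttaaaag
Uba7 (chr9:107975537-107975566, plus strand): tagTTTCACTTTTGGTTTCctgaaatcata
Herc6 (chr6:57580862-57580991, plus strand): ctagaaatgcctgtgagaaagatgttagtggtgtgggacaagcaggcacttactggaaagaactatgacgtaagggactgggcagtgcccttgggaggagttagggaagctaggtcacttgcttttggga

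The copies in Isg15 lay 78 to 57 bases before its start, which is the same base in RefSeq and in the GENCODE M21 annotation of the files. The stretches in Uba7 lay 27 to 12 bases before the RefSeq start. The GENCODE start of its coding transcript, Uba7-201, lies 33 bases further upstream, so in that annotation they fall inside the 5′ UTR. Herc6 had 1 such stretch, 197 to 188 bases before its start and outside the bases shown, and Ube2l6 had 0. Isg15 had 1 besides its exact copies, 112 to 103 bases before its start, which is left in lower case. A stretch with 1 changed letter was present in 30.0% of all promoters. The motif TTCNNNGAA (STAT dimers; 7.02% of promoters) and the kB motif (NF-kappa-B; 7.25% of promoters) had 0 matches in the 4 members. A missing match says only that these letters were not found in this window.

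Summed over all annotated transcripts, Uba7 and Herc6, the genes of the activating enzyme and the ligase, had the highest chromatin RNA of the 5 genes. Usp18 and Isg15 followed at about the same level, and Ube2l6, the gene of the carrier enzyme, was lowest. Counting only protein-coding transcripts changed this order and put Uba7 far below Herc6, as given below. All 5 genes were above 1 TPM by limma with Benjamini-Hochberg adjustment over 24180 genes, of which 51.1% passed the same test, as did 61.8% of the protein-coding genes among them, so that passing says little about these genes. Their median was 70.6 TPM, against 2.02 TPM for all genes tested and 4.17 TPM for the protein-coding genes among them. At a floor of 10 TPM, 4 of the 5 passed and 18.1% of all genes did. Bulk samples cannot tell apart fewer cells that make an RNA and less of that RNA per cell.

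Uba7 (ENSMUSG00000032596.14, mm10 chromosome 9, 107975505 to 107984060, plus strand) encodes the E1 enzyme that activates ISG15. It had 439.89, 556.64 and 395.21 TPM in replicates 1, 2 and 3. Its mean was 464 ± 83.4 TPM (SD, n = 3), higher than 99.5% of the genes tested. Replicate 2 was highest and replicate 3 lowest, while per the labels replicate 1 was made from 1 µg of RNA, replicate 2 from 250 ng and replicate 3 from 500 ng. On the log2 scale its level exceeded 1 TPM by 8.71 (SE 0.17, limma adjusted p = 3.94e-05).

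Ube2l6 (ENSMUSG00000027078.14, chromosome 2, 84798828 to 84810335, plus strand) encodes the E2 enzyme that carries activated ISG15. It had 26.93, 13.05 and 18.78 TPM in replicates 1, 2 and 3, from 319, 225 and 316 expected counts. The mean of 19.6 ± 6.98 TPM (SD, n = 3) exceeded that of 83.7% of the genes tested. Replicate 1 had the highest level and replicate 2 the lowest, and 95% Poisson intervals of 24.1 to 30.1 TPM and 11.4 to 14.9 TPM, which cover counting error only, did not overlap. Its level exceeded 1 TPM by 4.10 log2 units (SE 0.25, limma adjusted p = 0.000175). Above 10 TPM it had 0.90 log2 units and did not pass (limma adjusted p = 0.066).

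Herc6 (ENSMUSG00000029798.11, chromosome 6, 57581000 to 57664632, plus strand) encodes the mouse E3 ligase of ISG15. Replicates 1, 2 and 3 had 536.43, 360.62 and 309.77 TPM. Its mean was 402 ± 119 TPM (SD, n = 3), above 99.4% of the genes tested, and exceeded 1 TPM by 8.48 log2 units (SE 0.22, limma adjusted p = 3.94e-05). Replicate 1 was well above the other libraries. A total of 15342.9 to 18772.9 expected counts per library lay behind these values.

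Isg15 (ENSMUSG00000035692.6, chromosome 4, 156199424 to 156200818, minus strand) encodes the modifier itself. It had 74.28, 55.99 and 70.0 TPM in replicates 1, 2 and 3, from 433, 438 and 532 expected counts. The mean was 66.8 ± 9.57 TPM (SD, n = 3), above 95% of the genes tested, and exceeded 1 TPM by 5.92 log2 units (SE 0.16, limma adjusted p = 3.94e-05). On the log2 scale of the gene table, its libraries lay closest together of the 5 genes. In the second transcript table Isg15 had 91.0 ± 22.8 TPM and Uba7 392 ± 70.9 TPM (SD, n = 3 each), where Isg15 had the larger SD relative to its mean. Isg15 is also the shortest of the 5 genes, with a span of 1395 bases and a single intron of 639 bases.

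Usp18 (ENSMUSG00000030107.10, chromosome 6, 121245906 to 121270917, plus strand) encodes the protease that removes ISG15 and restrains interferon receptor signalling. Its levels were 104.27, 58.61 and 48.95 TPM in replicates 1, 2 and 3. The mean was 70.6 ± 29.5 TPM (SD, n = 3), above 95.3% of the genes tested, and exceeded 1 TPM by 5.93 log2 units (SE 0.27, limma adjusted p = 7.74e-05). Replicate 1 had the highest value and stood apart from the other libraries.

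**Figure D1:**
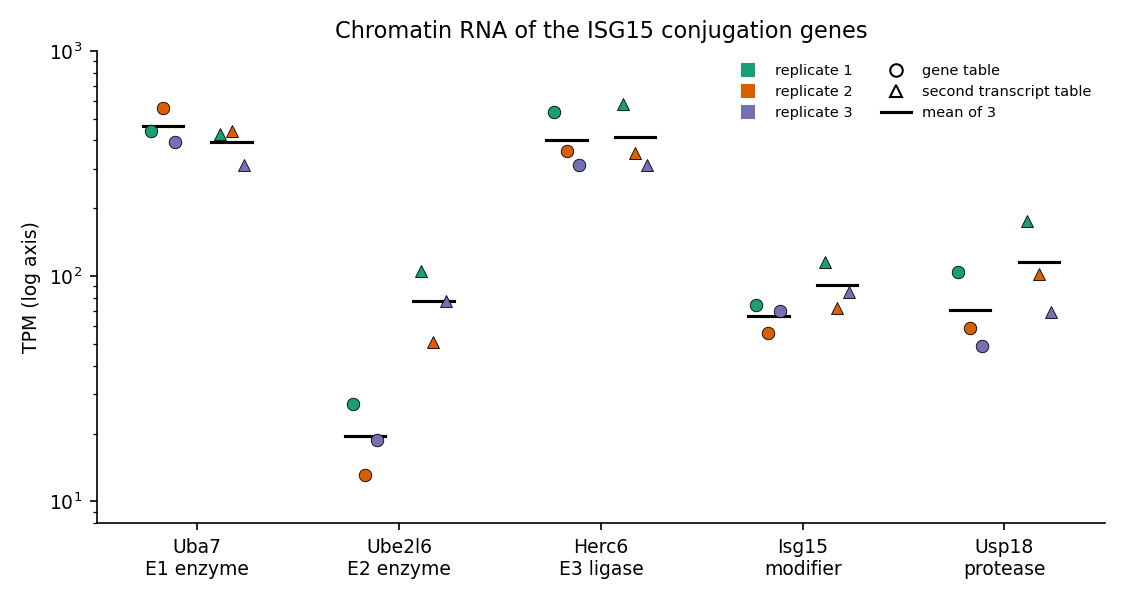
TPM on a log axis of the 5 genes in each of the 3 libraries, from the gene table (circles) and from the second transcript table summed per gene (triangles), with the mean as a line. Uba7 and Herc6 are highest in both tables, at 464 and 402 TPM in the gene table, and Ube2l6 moves most between tables, with 19.6 TPM in the gene table and 77.7 TPM in the second.

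Neighbours in this order were compared within each library, as a difference on the log2(TPM + 0.1) scale. Uba7 exceeded Herc6 by 0.23 ± 0.47 log2 units (SD, n = 3) and was higher in 2 of 3 libraries, so the pair did not differ beyond its spread. Herc6 exceeded Usp18 by 2.55 ± 0.16 log2 units in 3 of 3 libraries, and their TPM ranges did not overlap. The step between Usp18 and Isg15 was 0.01 ± 0.50 log2 units, with overlapping ranges. Isg15 exceeded Ube2l6 by 1.82 ± 0.32 log2 units in 3 of 3 libraries, with no overlap. The genes thus fell into 3 levels in the gene table, with Uba7 and Herc6 at the top, Usp18 and Isg15 in the middle and Ube2l6 below. An exact sign-flip test over 3 libraries cannot give a p below 0.25, so none was run on these differences.

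The level of Ube2l6 depended on which deposited table was read. In the second transcript table, which was made by another tool, Ube2l6 had 105, 50.8 and 77.2 TPM in replicates 1, 2 and 3. Its mean there was 77.7 ± 27.1 TPM (SD, n = 3), a shift of 1.98 log2 units from the gene table, where the median gene shifted by 0.42. Isg15 then exceeded Ube2l6 by 0.26 log2 units in place of 1.82. The entry that moved most was Ube2l6-202, a protein-coding transcript of 343 bases, which had 0.0, 0.67 and 0.0 TPM in the first transcript table and 52.2, 23.9 and 42.2 TPM in the second. Ube2l6-204, with a retained intron, and Ube2l6-203, a processed transcript, had 3.73 and 0.453 TPM on average in the first table and 17.1 and 4.78 TPM in the second. The full-length entry Ube2l6-201, of 1560 bases, was close in both, with 15.2 ± 4.85 TPM in the first and 16.3 ± 4.52 TPM in the second (SD, n = 3). Uba7, Herc6, Isg15 and Usp18 had 392, 415, 91.0 and 116 TPM in the second table, shifts of -0.24, 0.03, 0.43 and 0.68 log2 units.

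The members differed widely in the annotated transcripts that took their reads. Counts of Uba7 and Herc6 fell mostly on transcripts annotated as retaining an intron, those of Ube2l6 and Usp18 mostly on protein-coding transcripts, and Isg15 has only 1 annotated transcript. Among 6837 protein-coding genes that have such an entry and average at least 10 expected counts, the median retained-intron share was 27.7% and the quartiles were 10.3% and 52.7%. In chromatin RNA an unspliced molecule can be assigned to an entry that keeps an intron, so these shares do not separate unfinished splicing from stable retention.

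Uba7 has 15 annotated transcripts, 10 of them with a retained intron. Retained-intron transcripts took 78.6%, 77.4% and 75.7% of its expected counts in replicates 1, 2 and 3. The mean of 77.2 ± 1.49% (SD, n = 3) was higher than that of 91.7% of the 6837 genes. The shares differed little between libraries. Uba7-210, a 3620-base entry with a retained intron, took the most, with 32.4 ± 4.22% of counts. A further 16.8 ± 2.67% fell on 2 entries annotated for nonsense-mediated decay, which destroys messages with an early stop codon. The only protein-coding entry, Uba7-201 with 24 exons, took 1.07%, 7.1% and 8.09% in replicates 1, 2 and 3, so replicate 1 stood far below the others.

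The annotation also covers more of the introns of Uba7 than of the other members. Other annotated transcripts cover 3464 of the 5328 intron bases of Uba7-201, which is 65.0%. For Herc6, Usp18 and Ube2l6 the same share was 5.74%, 4.38% and 2.83%, and for Isg15 it was 0%. An intron read counts toward a gene only where an annotated transcript covers it. The part this has in the level of Uba7 was not tested.

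Short entries added to the level of Uba7 out of proportion to their reads. Uba7-203, a retained-intron entry of 362 bases, took 0.987% of counts and 13.5% of the TPM of the gene. Uba7-212, of 503 bases, took 2.14% of counts and 14.6% of TPM. The same held for Herc6-203, an entry of 449 bases annotated for nonsense-mediated decay, with 0.631% of counts and 9.42% of TPM. In Usp18 the 2 retained-intron entries, of 556 and 717 bases, took 20.7% of counts and 45.0% of TPM. They had 58.49, 24.03 and 18.5 TPM in replicates 1, 2 and 3. Summed TPM of a gene with many short entries thus rests in part on few reads.

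Herc6 has 6 annotated transcripts, 4 of them with a retained intron. These took 63.0%, 55.8% and 54.6% of its expected counts in replicates 1, 2 and 3. The mean was 57.8 ± 4.5% (SD, n = 3), higher than that of 78.9% of the 6837 genes. Replicate 1, which had the highest level of Herc6, also had the highest share. Nearly all of it fell on Herc6-202, a single-exon entry of 4378 bases, with 54.7 ± 4.09% of counts. The coding transcript Herc6-201, with 23 exons, took 41.6 ± 4.73%.

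Usp18 has 4 annotated transcripts, and the 2 with a retained intron took 29.5%, 17.1% and 15.6% of its counts in replicates 1, 2 and 3. The mean of 20.7 ± 7.6% (SD, n = 3) lay above that of 41.2% of the 6837 genes. As for Herc6, replicate 1 had both the highest level and the highest share. Ube2l6 has 1 such entry among 4, which took 4.7 ± 1.56% of counts, more than in 13.8% of the genes. Of the counts of Ube2l6, 93.5 ± 2.16% fell on its 2 protein-coding entries. The second transcript table gave retained-intron shares of 74.0%, 51.8%, 21.9% and 13.9% for Uba7, Herc6, Usp18 and Ube2l6, in the same order as the first.

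**Figure D2:**
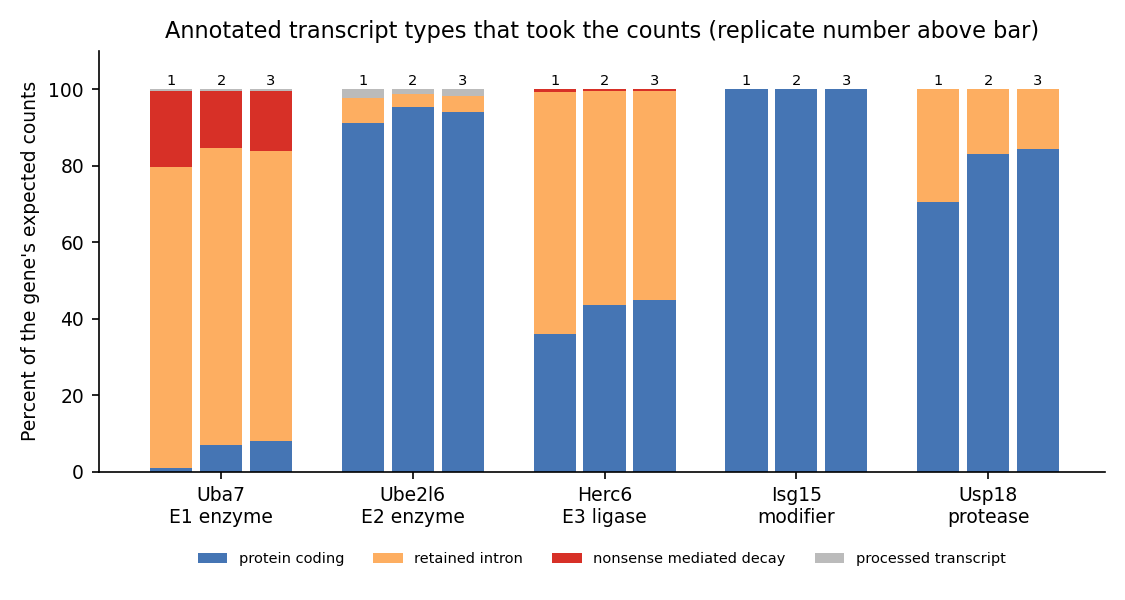
Stacked bars give the percent of each gene's expected counts that fell on protein-coding, retained-intron, nonsense-mediated decay and processed transcripts in replicates 1, 2 and 3. Retained-intron transcripts hold 77.2% on average for Uba7 and 57.8% for Herc6, against 20.7% for Usp18 and 4.7% for Ube2l6, while Isg15 has 1 coding transcript.

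Counting only transcripts of protein-coding type changed the order, a measure chosen after the data were seen. Herc6 was then highest, with 131.2, 114.2 and 102.2 TPM in replicates 1, 2 and 3. Isg15 kept its 66.8 ± 9.57 TPM, and Usp18 had 36.9 ± 7.93 TPM (SD, n = 3 each). The ranges of these 3 genes did not overlap in the first transcript table. In the second table Herc6 had 122.7, 102.9 and 84.17, Isg15 116.3, 71.99 and 84.66 and Usp18 86.62, 61.49 and 43.23 TPM of protein-coding type in replicates 1, 2 and 3, where the ranges of neighbours in this order overlapped. Usp18, level with Isg15 when all transcripts were summed, was 0.86 log2 units below Isg15 on this measure in the first table.

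Uba7, the highest gene over all transcripts, had 3.01, 22.54 and 19.18 TPM of protein-coding type in replicates 1, 2 and 3. Its mean was 14.9 ± 10.4 TPM (SD, n = 3), and it was 3.38 log2 units below Herc6. Ube2l6 had 20.04, 11.01 and 15.18 TPM, with a mean of 15.4 ± 4.52 TPM (SD, n = 3). The ranges of Uba7 and Ube2l6 overlapped, and Uba7 was the lower of the pair in replicate 1 and the higher in replicates 2 and 3. In the second table the coding transcript of Uba7 had 2.07 ± 2.21 TPM, with 0 in replicate 1, and the coding transcripts of Ube2l6 had 55.7 ± 18.6 TPM (SD, n = 3 each).

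**Figure D3:**
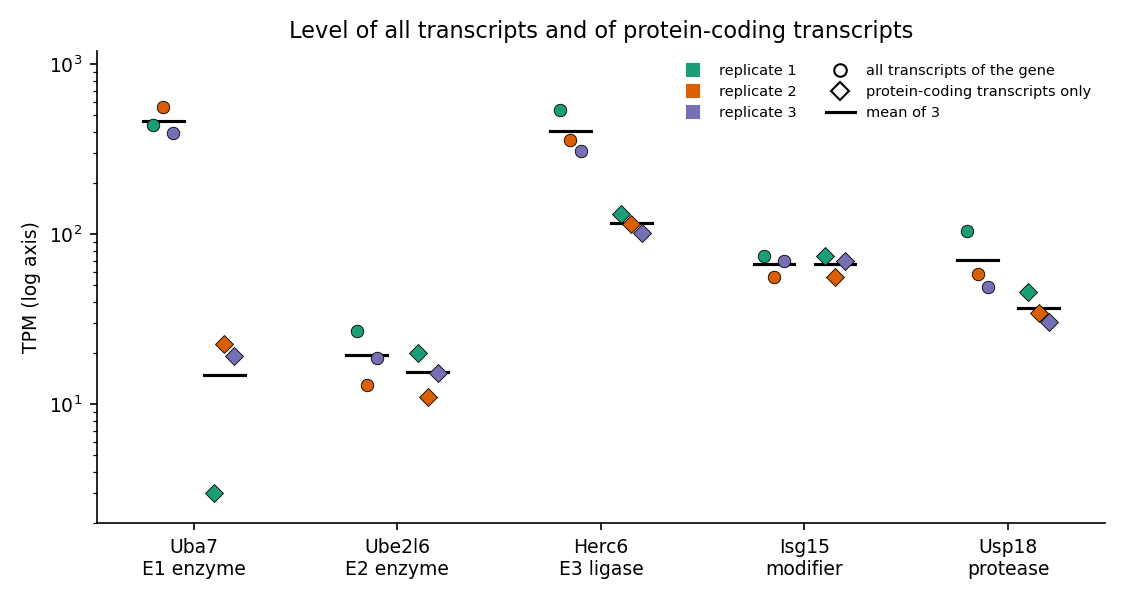
TPM on a log axis of all transcripts of each gene (circles) and of its protein-coding transcripts only (diamonds) in the 3 libraries, with the mean as a line. Uba7 is highest over all transcripts at 464 TPM and has 14.9 TPM of protein-coding type, Herc6 has 116 TPM of that type, and Isg15 has the same 66.8 TPM on both measures.

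In the gene table the spread between libraries also separated the members. Over 14979 genes averaging at least 10 expected counts, the SD of log2(TPM + 0.1) had a median of 0.28 and a upper quartile of 0.45. Isg15 at 0.21 and Uba7 at 0.25 lay below that median. Herc6 had 0.41, Ube2l6 0.52 and Usp18 0.57, and the last pair lay above the upper quartile.

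Replicate 1 was set against the mean of the other libraries on the log2 scale. Usp18 was 0.96, Ube2l6 0.78 and Herc6 0.68 log2 units higher in it, which put them above 97.3%, 95% and 93.1% of the 14979 genes. Isg15 was 0.25 log2 units higher and Uba7 0.09 log2 units lower (a difference of -0.09), both within or at the quartiles of all genes, which were -0.33 and 0.25. In the gene table the ligase, carrier and protease genes thus shared a high value in replicate 1 that the modifier and the activating enzyme did not. In the second transcript table Isg15 also stood higher in replicate 1, with 116, 72.0 and 84.7 TPM in replicates 1, 2 and 3. Uba7 did not stand apart there, with 426, 440 and 311 TPM, so the place of Isg15 in this split depends on the table. The 8 genes of type I interferon receptor signalling had a median of 0.26 and the macrophage markers a median of -0.06 in the same library. Replicate 1 had the most RNA put into the library and the lowest total of counts, and these cannot be told apart from the replicate itself.

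In replicate 2 the deviations went both ways. Uba7 was 0.42 log2 units above the other libraries and Ube2l6 was 0.78 log2 units below them (a difference of -0.78). In replicate 3 Usp18 had a difference of -0.67, Herc6 one of -0.51 and Ube2l6 one of 0.00 log2 units. With 3 libraries of 1 group, none of these deviations was tested.

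**Figure D4:**
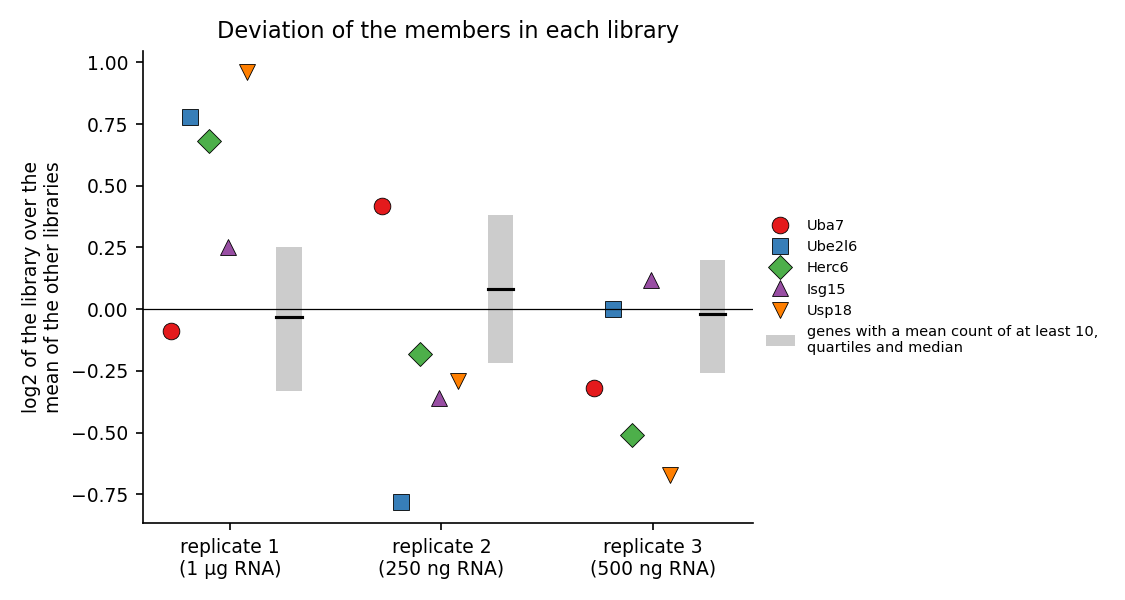
For each library, the points give the log2 ratio of the 5 genes to the mean of the other libraries, and the grey bar gives the quartiles and median of 14979 genes with a mean count of at least 10. In replicate 1 Usp18 (0.96), Ube2l6 (0.78) and Herc6 (0.68) lie above the bar, whereas Isg15 (0.25) and Uba7 (-0.09) do not.

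Each member was then set beside its relatives in the ubiquitin pathway, which attaches ubiquitin by the same kind of relay. Uba7 had 27.0 times the mean TPM of Uba1, the main E1 gene of ubiquitin, which had 17.2 ± 1.04 TPM (SD, n = 3), and 68.7 times that of Uba6, the other ubiquitin E1 gene, with 6.75 ± 0.834 TPM. The ranges did not overlap in either pair. The second table gave 13.4 times for Uba1 and 48.7 times for Uba6. Protein-coding transcripts of Uba7 alone had 14.9 TPM, as given above, and the relatives were not split by transcript type. Among E1 genes of other ubiquitin-like modifiers, 6 of 6 were above 1 TPM, with a median of 23.8 TPM. Atg7 (autophagy modifiers) had 55.4, Uba2 (SUMO) 23.8 and Sae1 (SUMO) 9.49 TPM. Uba7 lay above these 3 in the gene table.

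Ube2l6 did not differ beyond its spread from Ube2l3, its closest relative among the ubiquitin E2 genes. Ube2l3 had 12.3 ± 1.31 TPM (SD, n = 3), and Ube2l6 was 0.62 ± 0.60 log2 units higher, in 2 of 3 libraries. Herc6 was 3.06 times as high as Herc1, the highest of its 4 relatives, which had 132 ± 10.1 TPM (SD, n = 3). Herc4, Herc2 and Herc3 had 78.4, 49.2 and 12.1 TPM. The range of Herc6 overlapped with none of the 4, and it was higher in 3 of 3 libraries in both tables. These comparisons sum all transcripts. Protein-coding transcripts of Herc6 alone had 116 TPM, and its relatives were not split by transcript type.

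Isg15 was set against Ubb, a gene of ubiquitin itself. It had 3.57 times the mean TPM of Ubb, which had 18.7 ± 6.25 TPM (SD, n = 3), and was higher in 3 of 3 libraries without overlap. The second table gave a ratio of 3.49. Ubb carries near-identical repeats of the ubiquitin sequence, so its reads may be shared with other ubiquitin genes.

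Of 10 other genes whose products have been reported to act on ISG15, 8 were above 1 TPM in the gene table. Trim25, an E3 ligase gene, had 133 ± 5.33 TPM and Arih1, another, 65.6 ± 9.52 TPM (SD, n = 3 each). Herc6 had 3.03 and 6.13 times these levels without overlap. Usp5, a protease of free ubiquitin chains, had 62.5 ± 4.38 TPM (SD, n = 3), and its range overlapped that of Usp18. Usp18 also overlapped Usp16, at 57.2 TPM, and lay above Usp14, at 39.1 TPM, and Usp21, at 25 TPM, in 3 of 3 libraries. Protein-coding transcripts alone had 116 TPM for Herc6 and 36.9 TPM for Usp18, and the other genes were not split by transcript type. Usp2 had 0.507 TPM and was not above 1 TPM, and Usp13 was listed at 0 in all libraries of the gene table. In the second table Usp2 had 3.85, 2.79 and 2.39 TPM in replicates 1, 2 and 3, and Usp13 had a mean of 0.116 TPM. Ube2l6 exceeded Ube2e1, another E2 gene, which had 9.57 TPM, by 0.99 ± 0.74 log2 units in 3 of 3 libraries, and by 2.20 log2 units in the second table.

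Type I interferon receptor signalling, which USP18 restrains, is known to induce the members. Of 8 genes of that pathway, 7 were above 1 TPM, with a median of 70.2 TPM, close to the 70.6 TPM of the members. Stat2, which carries the signal to the nucleus, had 570 ± 96.7 TPM (SD, n = 3), and its range overlapped that of Uba7. Both values sum all transcripts. Protein-coding transcripts of Uba7 alone had 14.9 TPM, and Stat2 was not split by transcript type. Tyk2, a receptor kinase, had 94.6 TPM. Interferon beta itself is encoded by Ifnb1, which had 1.15 ± 0.511 TPM (SD, n = 3) and did not pass. ISG15 that leaves the cell is bound by the integrin LFA-1 on other cells. The genes of its subunits, Itgal and Itgb2, had 35.2 ± 7.35 and 49.7 ± 5.1 TPM (SD, n = 3 each), and both were above 1 TPM.

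**Figure D5:**
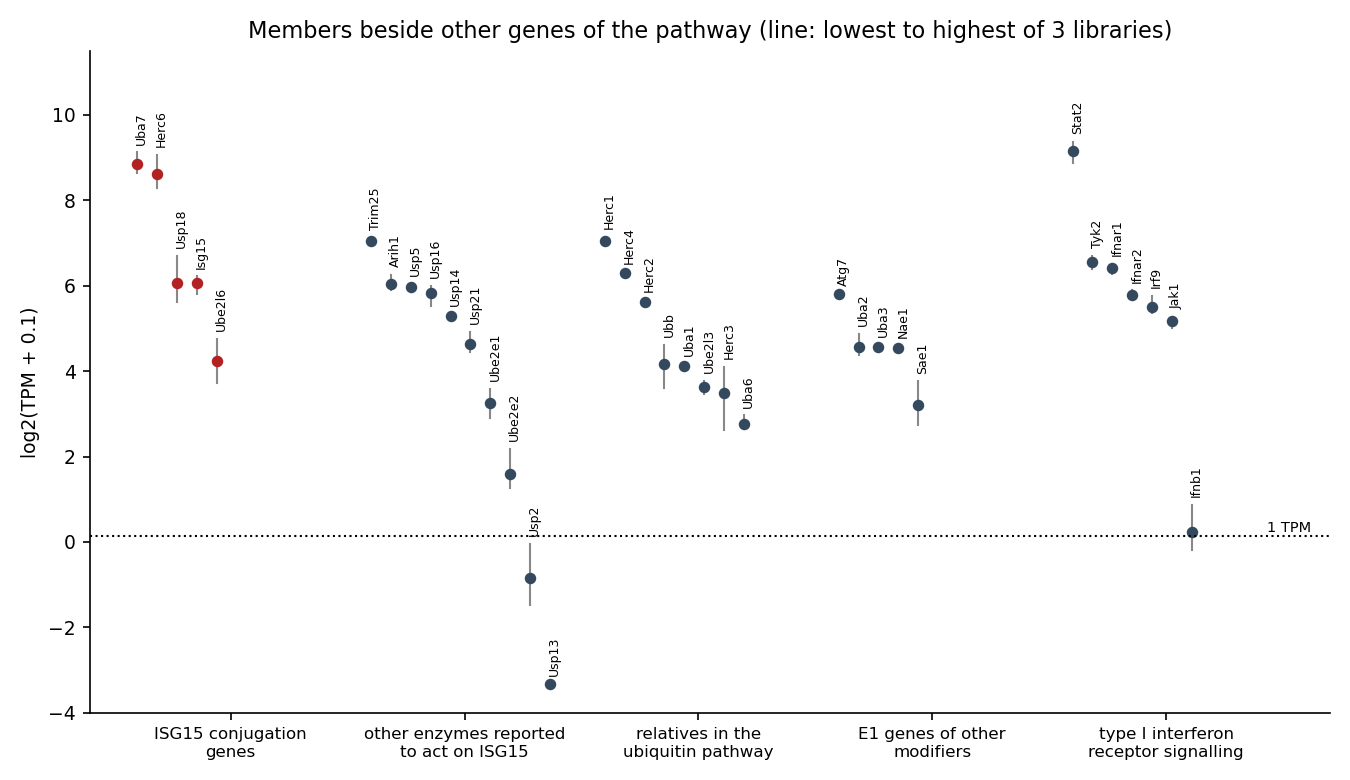
Mean log2(TPM + 0.1) of the 5 members (red) and of genes from 4 lists of related genes (dark blue), with a line from the lowest to the highest of the 3 libraries and a dotted line at 1 TPM. Uba7 and Herc6 stand beside Stat2 above the ubiquitin relatives, Usp18 and Isg15 lie among the other ISG15 enzymes, and Ube2l6 lies near Ube2l3. Each level sums all transcripts of a gene.

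For each member the 2 protein-coding genes nearest in level over the 3 libraries were taken by Euclidean distance of log2(TPM + 0.1), a description that rests on 3 values per gene. Herc6 was nearest to Ms4a7 (distance 0.255) and to Ifit2 (0.278), an interferon-induced gene with 517.26, 306.93 and 280.52 TPM in replicates 1, 2 and 3. Usp18 was nearest to Cblb (0.289) and Ncoa4 (0.31), and Uba7 to Rasa4 (0.276) and Nisch (0.293). Ube2l6 was nearest to Cd28 (0.082) and Zfp275 (0.199), and Isg15 to Chka (0.082) and Atf7ip (0.105).

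Genes beside the members bear on how far their reads can be told apart, since the sources used here do not give whether counting used strand. Inka1, on the opposite strand 162 bases beyond the end of Uba7, had 12.9 ± 1.17 TPM, and Gm20661, which overlaps Uba7 on the same strand, had 1.96 ± 0.713 TPM (SD, n = 3 each). Herc6 overlaps Gm19244, a pseudogene on the opposite strand with 33.0 TPM from 18 to 27 counts, and Gm45193 on the same strand with 5.58 TPM. Usp18 overlaps the noncoding gene Gm44148 on the opposite strand, which had 0.81 TPM in the gene table and 19.9 TPM in the second table. In the second table Gm19244 had 117 and Gm45193 37.1 TPM, with Herc6 itself at 415 TPM. Isg15 and Ube2l6 overlap no annotated gene. Their nearest coding neighbours were Agrn, 1935 bases from Isg15 with 29.6 ± 3.67 TPM, and Smtnl1, 840 bases from Ube2l6 with 0.537 ± 0.224 TPM (SD, n = 3 each). The authors' read assignment in the gene table gave Isg15, Usp18 and Ube2l6 an uncertainty of 0 counts. Uba7 had one of 0.45 to 0.75 counts and Herc6 one of 19.78 to 35.18 counts. This uncertainty does not cover differences between the tables, where Ube2l6 had 19.6 TPM in the gene table and 77.7 TPM in the second.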

How the data were processed

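Total RNA of the chromatin fraction was sequenced in 3 libraries of 1 group, per the labels, which give replicate numbers, biosamples and input RNA. Per the file headers, the authors deposited gene and transcript tables of expected counts and TPM in the column layout of RSEM, and another transcript table of estimated counts and TPM in that of kallisto, called the second here. The text deposited beside them names assembly mm10 and annotation release M21. The sources used here do not give the aligner, the tool versions or the use of strand. The gene table also gives the standard deviation of each count from the authors' read assignment.

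Symbols of 55536 genes came from that annotation and were the same for the 55450 genes of the second table. Rows that name no gene (spike-in, phiX and numbered rows) held 0.401% to 1.045% of counts and were left out. Chi-square per degree of freedom between libraries was 40.1 to 75.9, so no library copied another. The counts of a member were 225 to 18772.9 per library. Where reads are taken as independent, 3 counts are about the one-sided 95% upper limit for a count of 0. They equal 0.515 TPM or less for 5 of 5 members.

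Genes with a nonzero TPM in at least 1 library were fitted with an intercept-only limma model (3.58.1) of log2(TPM + 0.1), tested one-sided against 1 TPM with Benjamini-Hochberg adjustment at 0.05, after a check on simulated data. The log2 scale understates differences of genes near 0.1 TPM. Differences between members were described by mean and SD over libraries and by overlap of ranges. Named genes were the members, genes of 5 lists (the 3 highest and the lowest by mean TPM, and lists of up to 4 in full), marker genes, the 2 genes nearest in level, neighbours and overlapping genes. Relatives outside these, and single transcripts, were named after their values were seen, as was the mismatch search in promoters. Some genes of the lists count in their totals and are not reported here by name. The members and lists were chosen with earlier results of these data known. TMM factors (edgeR 4.0.16) and DESeq2 (1.42.0) size factors came from expected counts rounded to whole numbers. Scripts ran in R 4.3.3 and in python 3.11.15 with scipy 1.17.1, pandas 2.3.3, numpy 2.4.6 and matplotlib 3.10.9.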

Additional observations from a re-analysis of the deposited data

How the results depend on the processing

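Of 60 member levels under alternatives, 59 kept their direction and their side of the threshold. The exception was Ube2l6 at a floor of 10 TPM, given in the report. At the floor of 1 TPM and over 11 alternatives (pseudocounts of 1 and 0.01, 2 filters, the second transcript table, 3 scalings and each library left out), levels ranged from 7.85 to 10.37 log2 units for Uba7, 7.62 to 10.14 for Herc6, 5.09 to 7.59 for Usp18, 5.07 to 7.58 for Isg15 and 3.31 to 6.08 for Ube2l6, with the highest adjusted p at 0.0157. Rescaling to protein-coding genes moved the median of all genes by 1.58 log2 units, and TMM and DESeq2 factors moved it by 0.

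Of 24180 genes, 12367 were above 1 TPM. The count was 4374 at a floor of 10 TPM, where fewer genes can pass, and 19775 of 34376 genes in the second transcript table.

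In the second transcript table, Herc6 minus Usp18 was 1.89 in place of 2.55 log2 units and Isg15 minus Ube2l6 was 0.26 in place of 1.82. Retained-intron shares there were 73.97% for Uba7, 51.76% for Herc6 and 13.89% for Ube2l6, in place of 77.24%, 57.81% and 4.7%. With protein-coding transcripts only, chosen after seeing the data, Uba7 minus Herc6 was -3.38, Herc6 minus Usp18 1.66, Usp18 minus Isg15 -0.86 and Isg15 minus Ube2l6 2.14 log2 units. The cause was not tested. Ube2l6-202 differed most in TPM between the tables among the entries of Ube2l6.

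No paired analysis was possible because all libraries belong to 1 group. Differences between members were described and not tested. Counting depth limited Ube2l6 and Isg15 most, with 225 to 319 and 433 to 532 counts per library.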
